A study of Saccharomyces cerevisiae with 8 samples.

Results

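The protein part of the cytosolic ribosome of budding yeast, *Saccharomyces cerevisiae*, is described here through its messenger RNAs, in cells grown with and without gentamicin. A probe set is the group of short array probes that reports 1 transcript. Members were all probe sets annotated to a single gene whose symbol is that of a cytosolic ribosomal protein (RPL and RPP for the large subunit, RPS for the small subunit). This gave 105 of 9335 probe sets, for 80 of the 137 such genes in the R64 gene table: 58 probe sets for 47 genes of the large subunit and 47 probe sets for 33 genes of the small subunit. The 80 genes were 18 that exist in a single copy and both genes of 31 A and B pairs. The other 57 genes had no probe set annotated to them alone, and 54 of these were listed on 59 probe sets that name more than 1 gene. Of the 105, 48 tested probe sets carry in their names an i or f class mark, given to probe sets whose probes also match related sequences or are incomplete, and 55 tested ones carry none and are called own probe sets below.

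The gentamicin group was strain 4073 acclimated to gentamicin, an aminoglycoside antibiotic, and kept in it throughout, at 500 µg/ml by the sample labels (the series design text has milligrams, so the unit is unsettled; samples 5 to 8, n = 4). The control group was the same strain without the drug (samples 1 to 4, n = 4). Both were harvested at mid-log phase in YPD, a rich medium with glucose, and no genotype is given here for the strain. The labels do not say whether the 4 samples of a group were separate cultures, so p-values measure the spread between these samples. Each array gave 1 MAS5 signal per probe set in arbitrary units. An array reports each transcript against the rest of the RNA, so a change in total mRNA per cell cannot be seen, and fewer cells with a transcript cannot be told apart from less of it per cell.

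Each ribosome carries 1 copy of nearly every ribosomal protein, and the genes are among the most transcribed in growing yeast. Most exist as A and B paralogs left from an ancient duplication of the genome, which encode identical or nearly identical proteins. In yeast their transcription depends on Rap1, Fhl1 and Ifh1 and is tied to growth through the TOR and protein kinase A pathways, and several members also limit the processing or stability of their own transcripts. Aminoglycosides such as gentamicin are known to bind ribosomal RNA at the decoding site of the small subunit, where codons are read.

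The ratio of 3′ to 5′ signal of the *ACT1* control was 1.43 ± 0.0881 with gentamicin and 1.38 ± 0.107 in controls (SD, n = 4 each; exact two-sided permutation p = 0.486). The median signal of all probe sets was lower with gentamicin, at 321 to 338 against 381 to 398 in controls, while log2 signals of tested probe sets were spread more widely, with an interquartile range of 2.28 ± 0.0350 against 2.06 ± 0.0304 (exact two-sided permutation p = 0.0286 for both, the smallest that 4 against 4 arrays allow). The median log2 difference, gentamicin minus control, over all 5203 tested probe sets was -0.13.

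With gentamicin, 41 of the 103 tested ribosomal protein probe sets fell and 1 rose (limma on log2 signals, Benjamini-Hochberg adjusted p under 0.05 over all tested probe sets). Over all tested probe sets, 31.0% fell and 15.0% rose, so the share of members that fell, 39.8%, was somewhat above the background and the share that rose, 0.971%, far below it. The members' median log2 difference was -0.18, close to the -0.13 of all tested probe sets, with quartiles of -0.39 and -0.06. In all, 46.0% of tested probe sets were called in either direction. The gentamicin and control signals did not overlap for 40 of the 103 members and for 44.5% of all tested probe sets. The directions of single members rest on how arrays are scaled. With array medians aligned, which raises the median difference of all probe sets by 0.21, 20 members fell and 17 rose (background 13.7% and 26.9%) and the members' median turned to 0.04. After quantile normalization, which raises the overall median by 0.11, 63 members fell and 1 rose (background 19.5% and 18.6%), and the median was -0.28. With 1 probe set per gene in the fit, 34 of 80 members fell and 0 rose (background 31.3% and 15.5%), and at an adjusted p under 0.01, 26 of 103 fell and 1 rose (20% and 10.5%). The 59 probe sets that list several ribosomal protein genes, tested in a fit of all probe sets, had 12 lower and 1 higher (26.2% and 12.6% there), with a median of -0.14. Changes below are given as measured, and those that held under both other scalings are named as such.

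**Figure D1:**
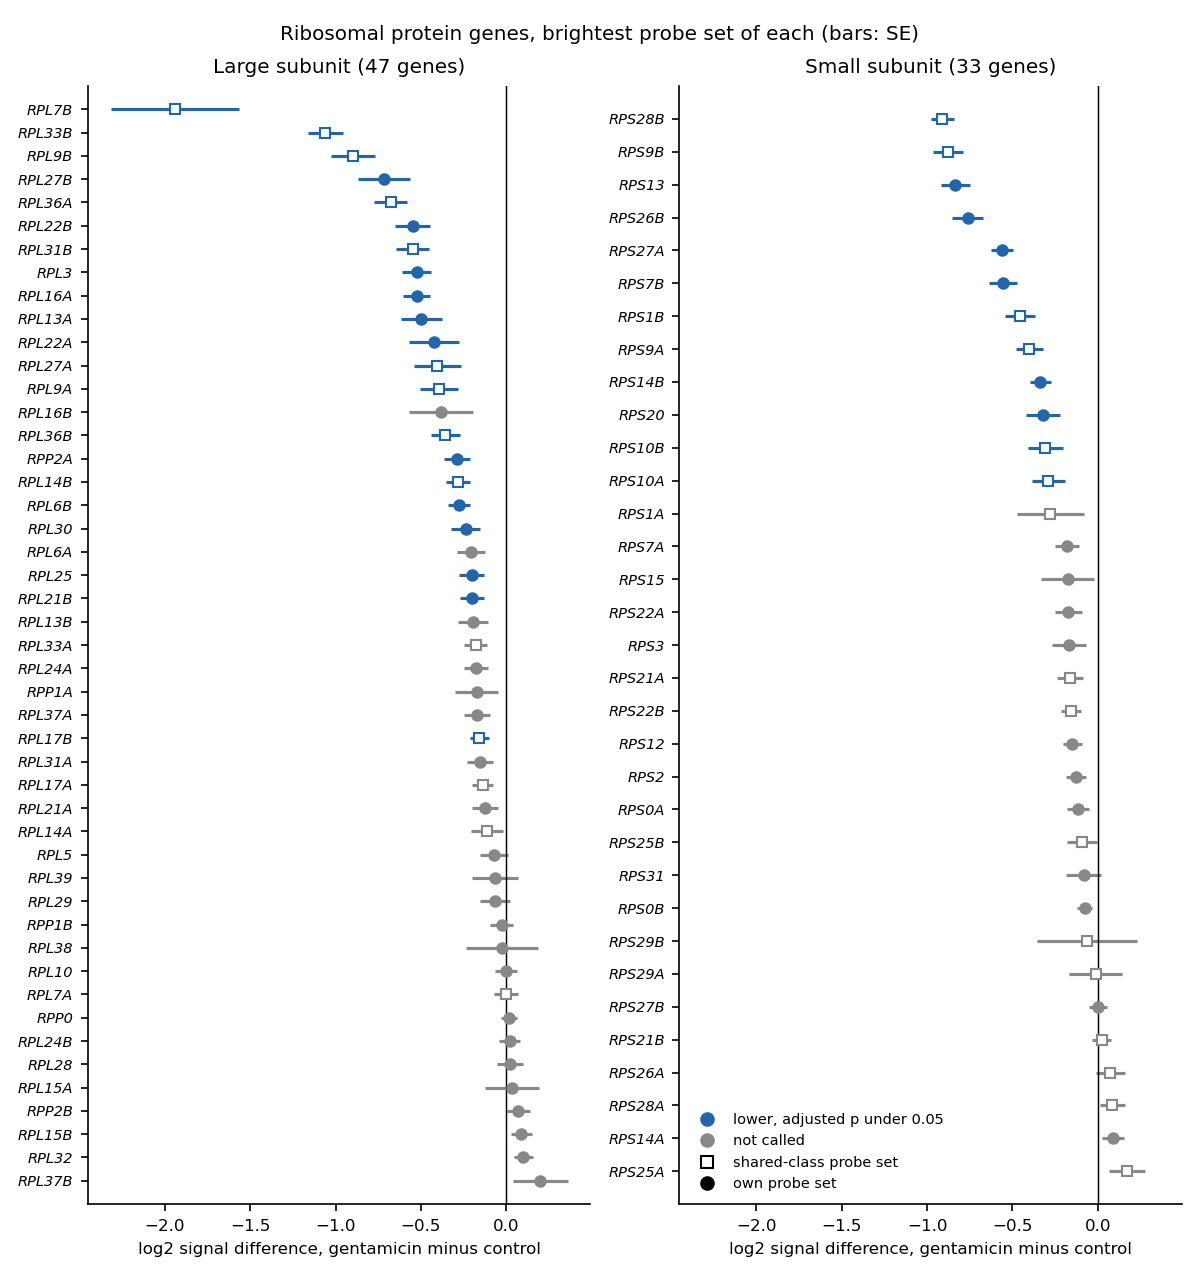
Log2 signal difference (gentamicin minus control, x axis, bars SE) for the brightest probe set of each of 47 large-subunit and 33 small-subunit genes. Filled circles are own probe sets and open squares probe sets of shared classes. Of the 80, 33 were called lower (blue), from *RPL7B* at -1.94 to *RPL17B* at -0.16, and 0 were called higher.

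Most members are bright, and bright probe sets behaved differently from dim ones on these arrays. Of the 103 tested members, 84 were among the brightest 1041 tested probe sets, those with a mean signal of 2152 or more. In that brightest class the median log2 difference over all probe sets was 0.08, with 16.8% lower and 33.3% higher. The 84 members there had a median of -0.17, with 31 lower and 0 higher by limma (0 also at an unadjusted p under 0.05, and 1 with array weights). The gap of -0.25 between these members and all probe sets of that brightness was -0.29 after quantile normalization. Aligning medians shifts every probe set equally and leaves this gap as it is. Within the members, the 27 with a mean signal of 10000 or more had a median of -0.08 with 3 lower. The 33 between 5000 and 10000 had -0.17 with 9 lower, and the 43 under 5000 had -0.37 with 29 lower and 1 higher. Over all tested probe sets the share lower was 37.3% in the dimmest of 5 equal classes of signal and 16.8% in the brightest. Shares of all probe sets at the cuts used for members were not computed. Whether the arrays compress differences at the highest signals was not tested.

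**Figure D2:**
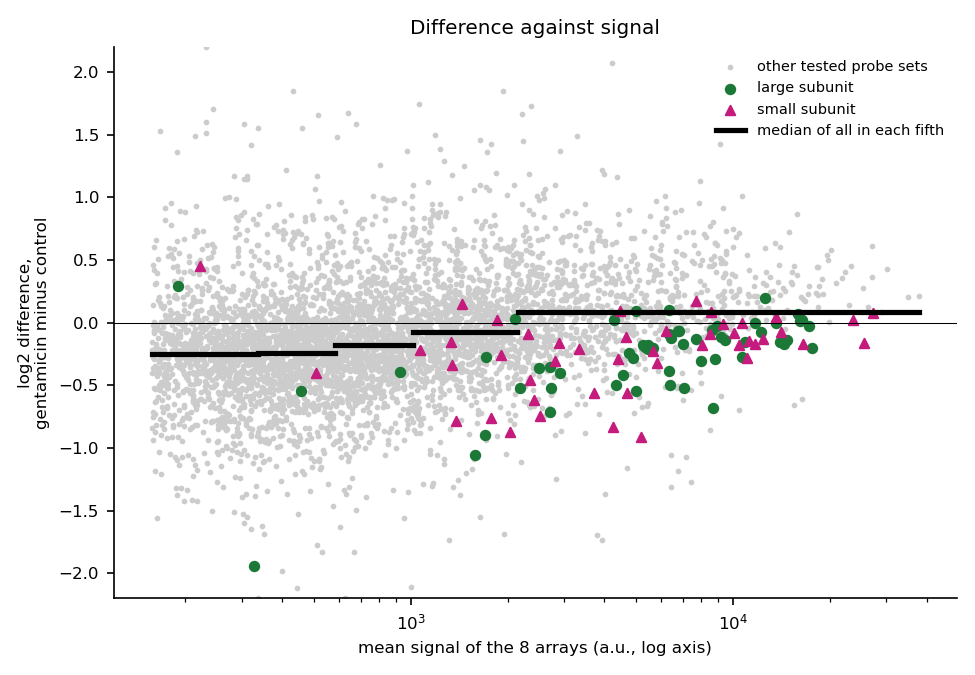
Log2 difference (gentamicin minus control, y axis) against the mean signal of the 8 arrays (log x axis) for 5203 tested probe sets, with large-subunit members as circles and small-subunit members as triangles. Black bars are the medians of all probe sets in 5 equal classes of signal, which run from -0.25 in the dimmest to 0.08 in the brightest, where most members lie below the bar. The y axis leaves out 13 probe sets with differences beyond 2.2.

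The large and small subunits had nearly equal medians. Of 57 tested large-subunit probe sets, 25 fell and 0 rose (0 at an unadjusted p under 0.05, 1 with array weights), with a median log2 difference of -0.18, and of 46 small-subunit probe sets, 16 fell and 1 rose, with a median of -0.17. On each array, after each member was centred on its mean over the 8 arrays, the large-subunit median lay between -0.11 and -0.09 with gentamicin and between 0.06 and 0.13 in controls. The small-subunit median lay between -0.12 and -0.06 with gentamicin and between 0.07 and 0.14 in controls. The 2 subunits differed by at most 0.0351 on any array, in both directions within each group. The groups did not overlap for either subunit, nor did they for all tested probe sets, whose medians lay between -0.06 and -0.04 with gentamicin and between 0.06 and 0.09 in controls. Among own probe sets alone, 11 of 35 fell for the large subunit and 7 of 20 for the small subunit, with 1 rise in the small subunit. Together these 18 of 55 are 32.7%, beside 31.0% of all tested probe sets and 16.8% of those in the brightest class.

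**Figure D3:**
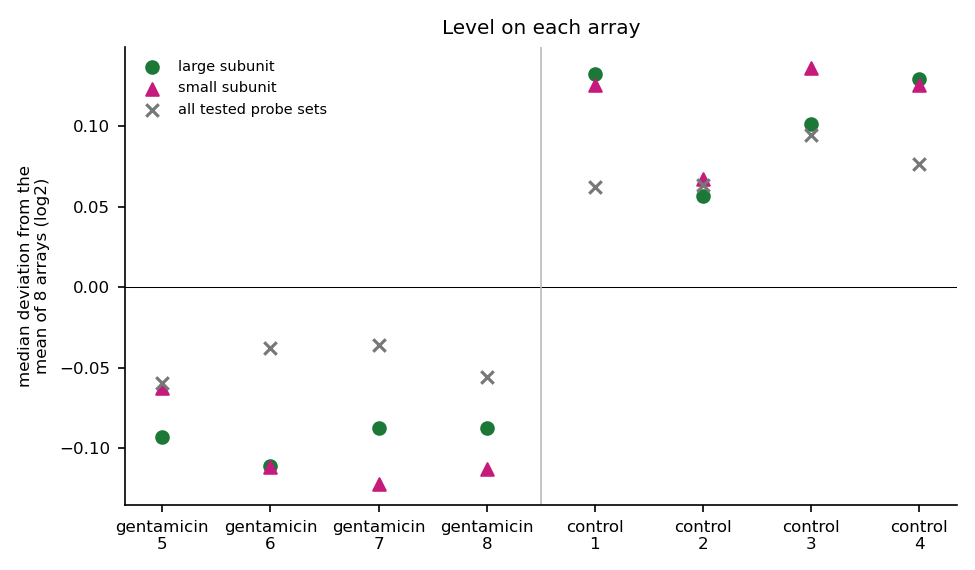
Median deviation of each array from the mean of the 8 arrays (log2, y axis) over large-subunit members (circles), small-subunit members (triangles) and all tested probe sets (crosses). Both subunits lie below 0 on the 4 gentamicin arrays and above 0 on the 4 control arrays, and control 2 is the control array nearest to 0.

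Of the 41 probe sets that fell, 20, for 15 genes, also fell under both other scalings and when any 1 of the 8 arrays was left out. These were *RPL3*, *RPL7B*, *RPL9B*, *RPL16A*, *RPL22B*, *RPL27B*, *RPL31B*, *RPL33B* and *RPL36A* of the large subunit, and *RPS7B*, *RPS9B*, *RPS13*, *RPS26B*, *RPS27A* and *RPS28B* of the small subunit. All but *RPL3* and *RPS13* belong to pairs, and 10 of these 13 are B genes, though A and B genes were not matched for signal. Of the 15 genes, *RPL7B*, *RPL9B*, *RPL31B*, *RPL33B*, *RPL36A*, *RPS9B* and *RPS28B* rest on probe sets of the i or f class alone. Values of the 15 genes are given below in the order of the proteins' roles.

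At the exit channel of mRNA on the small subunit, 6 of 15 tested probe sets fell and none rose, beside 31.0% lower and 15.0% higher over all tested probe sets and 39.8% lower over all members. *RPS28B*, which in yeast also binds its own transcript and promotes its decay, had signals of 3998, 3586, 3600 and 3933 on the 4 gentamicin arrays, against 7709, 6709, 7031 and 6976 on the 4 control arrays. All gentamicin values lay well below all control values, and the gene fell 1.88-fold (log2 difference -0.91 ± 0.07 SE, adjusted p = 1.75e-05). Its other probe set fell 1.67-fold (adjusted p = 0.000117). *RPS26B*, whose protein contacts the mRNA just upstream of the P site, had 1283, 1252, 1548 and 1381 with gentamicin, against 2561, 2118, 2189 and 2399 in controls. The groups were clearly apart, and it fell 1.70-fold (-0.76 ± 0.09, adjusted p = 0.0002). *RPS14B*, whose protein is known to block splicing of its own pre-mRNA, had 1223, 1192, 1203 and 1187 with gentamicin, against 1570, 1453, 1596 and 1452 in controls. It fell 1.26-fold (adjusted p = 0.00209), with no overlap, but was not called with aligned medians (adjusted p = 0.194). *RPS0B*, whose protein sits near the exit, fell 1.16-fold by its shared probe set (adjusted p = 0.012) and was not called by its own, brighter one (0.196). *RPS1B*, of the platform, fell 1.37-fold to 2013 ± 141 with gentamicin, against 2771 ± 290 in controls (adjusted p = 0.0026). With aligned medians, *RPS1B* (adjusted p = 0.0556) and the shared probe set of *RPS0B* (0.999) were not called, while *RPS26B* and *RPS28B* stayed lower. *RPS14A* (0.0116), both probe sets of *RPS26A* (0.0372 and 0.0356) and the brighter one of *RPS28A* (0.0232) were then called higher.

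At the decoding centre and the mRNA entry, the region nearest to the known binding site of the drug, 3 of 7 tested probe sets fell (31.0% of all tested probe sets) and all 3 were of the RPS9 pair. *RPS9B*, a protein of the mRNA entry linked to the accuracy of decoding, had 1649, 1578, 1426 and 1368 with gentamicin, against 3129, 2677, 2677 and 2562 in controls. It fell 1.83-fold (-0.88 ± 0.09, adjusted p = 8.15e-05), and its other probe set fell 1.72-fold. *RPS9A* fell 1.32-fold, to 443 ± 12.8 with gentamicin against 585 ± 48.8 in controls (adjusted p = 0.00349), a call that was not made with aligned medians (adjusted p = 0.102) or after quantile normalization (0.105). Of the 10 genes listed for this region, 6 had a probe set annotated to them alone. Apart from the RPS9 pair, the tested genes were not called. *RPS2* had 11895 ± 453 with gentamicin and 13015 ± 840 in controls (adjusted p = 0.108), *RPS3* 11121 ± 1094 and 12513 ± 1420 (0.187), *RPS15* 10041 ± 2161 and 11183 ± 1137 (0.374), and *RPS31*, made as a fusion with ubiquitin, 9878 ± 1199 and 10439 ± 973 (0.527).

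Elsewhere on the small subunit, the largest change was in a single-copy gene. *RPS13*, a protein that binds the central domain of the small-subunit RNA, had 3266, 3118, 3352 and 3029 with gentamicin, against 6561, 5052, 5715 and 5508 in controls. It fell 1.78-fold with no overlap (-0.83 ± 0.08, adjusted p = 7.83e-05), by its own probe set. *RPS27A*, a zinc-finger ribosomal protein, had 3836, 3739, 3993 and 3958 with gentamicin, against 5136, 5900, 5803 and 6106 in controls, and fell 1.48-fold (adjusted p = 0.000185). *RPS7B* fell 1.47-fold and 1.54-fold by its 2 own probe sets (adjusted p = 0.000622 and 0.000162). *RPS20*, a protein of the head, fell 1.25-fold (adjusted p = 0.0258), with 5267 ± 719 with gentamicin and 6536 ± 277 in controls.

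On the large subunit, *RPL3*, a single-copy gene whose protein reaches towards the peptidyl transferase centre where peptide bonds form, had 1750, 1923, 1640 and 2006 with gentamicin, against 2580, 2541, 2901 and 2494 in controls. The groups did not overlap, and it fell 1.44-fold (-0.52 ± 0.08, adjusted p = 0.000971). Of the 7 genes listed for this region, 3 had a probe set annotated to them alone. The other 2 tested genes of this region were not called. *RPL10*, which completes the subunit late in its assembly, had 13676 ± 970 with gentamicin and 13673 ± 633 in controls (adjusted p = 0.989), and *RPL5*, which binds the smallest ribosomal RNA, had 12016 ± 1192 and 12617 ± 907 (adjusted p = 0.5).

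Around the tunnel through which the new peptide leaves, 6 of the 14 listed genes had a probe set annotated to them alone. Of their 12 tested probe sets, 6 fell and none rose (31.0% and 15.0% of all tested probe sets), with a median of -0.15. Of the probe sets that fell, 3 were of *RPL31B*. *RPL31B*, at the rim of the tunnel, gave falls with all 3 of its probe sets, of 1.41-fold to 1.46-fold. The brightest had 4727, 4304, 4105 and 3537 with gentamicin, against 6565, 5569, 5714 and 6434 in controls (adjusted p = 0.0017). *RPL25*, a docking site at the tunnel exit, fell 1.15-fold (adjusted p = 0.0492), a change that vanished with aligned medians (log2 difference 0.01), and *RPL39*, which lines the tunnel, was not called (6668 ± 958 with gentamicin and 6992 ± 1131 in controls, adjusted p = 0.713).

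The stalk, the mobile arm that recruits elongation factors, had 1 of 6 probe sets lower, beside 31.0% of all tested probe sets. Of the 7 genes listed for it, 5 had a probe set annotated to them alone. *RPP0*, its base, had 16618, 16281, 16489 and 15856 with gentamicin, against 16039, 15549, 16404 and 16562 in controls, which overlapped throughout (adjusted p = 0.804). *RPP0* was called higher with aligned medians (log2 difference 0.23, adjusted p = 0.00802) and lower after quantile normalization (-0.14, 0.0361). *RPP2A* fell 1.22-fold, to 7998 ± 735 with gentamicin against 9756 ± 543 in controls (adjusted p = 0.0133), but its call was lost with aligned medians (adjusted p = 0.49). *RPP2B* had 16329 ± 1199 with gentamicin and 15543 ± 895 in controls (adjusted p = 0.427). *RPP1A* and both probe sets of *RPP1B* were not called (adjusted p = 0.296, 0.0551 and 0.789). With aligned medians *RPP2B* was called higher (adjusted p = 0.0193). After quantile normalization both probe sets of *RPP1B* were called lower (adjusted p = 0.0018 and 0.0224).

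Among the remaining large-subunit genes, *RPL33B* had 1031, 1249, 1064 and 1069 with gentamicin, against 2738, 2165, 2243 and 2078 in controls. It fell 2.08-fold, with every gentamicin value below every control value (-1.06 ± 0.10, adjusted p = 6.39e-05). *RPL9B* fell 1.86-fold, to 1267 ± 235 with gentamicin against 2331 ± 142 in controls (adjusted p = 0.000538). *RPL36A* fell 1.60-fold, to 6902 ± 848 against 11007 ± 993 (adjusted p = 0.000603), *RPL27B* 1.64-fold, to 2120 ± 102 against 3549 ± 796 (0.00473), and *RPL16A* 1.44-fold, to 5896 ± 560 against 8464 ± 543 (0.000744). *RPL7B* had the largest difference, 3.84-fold lower (-1.94 ± 0.38, adjusted p = 0.00271), at a low signal: 164, 178, 98.5 and 271 with gentamicin, against 391, 775, 488 and 1144 in controls. The lowest of these gentamicin values approached the highest signal of array controls for absent transcripts, 89.5. Its second probe set, left out by the signal filter, had 33.5 to 54.6 with gentamicin, inside the range of those controls, and 107 to 131 in controls.

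Smaller falls were measured in other genes of large-subunit pairs. *RPL13A* fell 1.41-fold (adjusted p = 0.00835), *RPL27A* 1.32-fold (0.0382), *RPL9A* 1.31-fold (0.0159) and *RPL36B* 1.28-fold (0.00872). *RPL14B* fell 1.22-fold (0.0101), *RPL6B* 1.21-fold (0.00765) and *RPL21B*, one of the brightest members, 1.15-fold (0.0422), to 16535 ± 1342 with gentamicin against 18940 ± 979 in controls. With aligned medians, none of these genes was called (adjusted p from 0.0822 for *RPL13A* to 0.91 for *RPL21B*). The log2 difference of *RPL21B* then turned to 0.01.

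Several single-copy and paired genes varied widely between arrays of a group and were not called. *RPL38* had 6017, 10073, 9929 and 10289 with gentamicin, against 6336, 9426, 11033 and 10068 in controls, so that the first array of each group was the low one. The same 2 arrays were lowest for *RPS29A*, with 7139, 10057, 10468 and 9831 with gentamicin, against 7135, 9753, 10391 and 10546 in controls, and for *RPS29B*. *RPS1A* ranged from 6299 to 12987 with gentamicin, against 11454 to 12911 in controls (adjusted p = 0.276), and *RPL16B* from 3543 to 6910, against 6572 to 7729 (0.123).

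Genes known in yeast to limit their own or their paralog's transcript (*RPL22A*, *RPL22B*, *RPL30*, *RPS14A*, *RPS14B*, *RPS28A* and *RPS28B* here) had 6 of 9 probe sets lower and none higher, beside 31.0% and 15.0% of all tested probe sets, with a median of -0.34. The 6 include both probe sets of *RPS28B*. Over all members, 39.8% fell. With aligned medians, *RPL22A*, *RPL30* and *RPS14B* were not called (adjusted p = 0.229, 0.846 and 0.194), while *RPL22B* and *RPS28B* stayed lower. *RPS14A* and the brighter probe set of *RPS28A* were then called higher (adjusted p = 0.0116 and 0.0232). *RPL30*, which binds its own pre-mRNA, fell 1.18-fold (adjusted p = 0.0422), to 4386 ± 324 with gentamicin against 5180 ± 488 in controls, with overlap of the groups. *RPL22B* fell 1.46-fold, to 381 ± 49.9 with gentamicin against 554 ± 34.9 in controls (adjusted p = 0.00239), and *RPL22A* 1.34-fold (0.0414), where control 1, at 3834, lay among the gentamicin values of 3479 to 4482.

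Some pairs held 1 gene that fell beside 1 that was not called. Of the 31 pairs, both genes fell in 6, only the A gene in 4, only the B gene in 12 and neither in 9, counted on the brightest probe set of each gene. A call in 1 gene and not the other does not show that they differ, so the ratio of the A to the B signal was formed within each array and compared between groups. This ratio is not changed by a shift of a whole array. It can change where differences depend on signal, and the genes of a pair were not matched for signal. The median log2 difference of all tested probe sets was -0.25 in the dimmest of 5 equal classes of signal and 0.08 in the brightest. How far this trend moved single ratios was not tested. The 4 gentamicin ratios lay apart from the 4 control ratios in 12 of 31 pairs (38.7%), each at the smallest p that this design allows (exact two-sided permutation p = 0.0286, not adjusted over the 31 pairs). Over single tested probe sets, 44.5% had groups that did not overlap, but single signals include shifts of whole arrays, which the ratio does not. The share for ratios of other probe sets was not computed, so the 38.7% has no like background here. In 8 of the 12 the ratio moved towards the A gene and in 4 towards the B gene. After quantile normalization, the ratio did not overlap in 13 of 31 pairs. By subunit, 5 of 18 large-subunit pairs and 7 of 13 small-subunit pairs were among the 12.

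**Figure D4:**
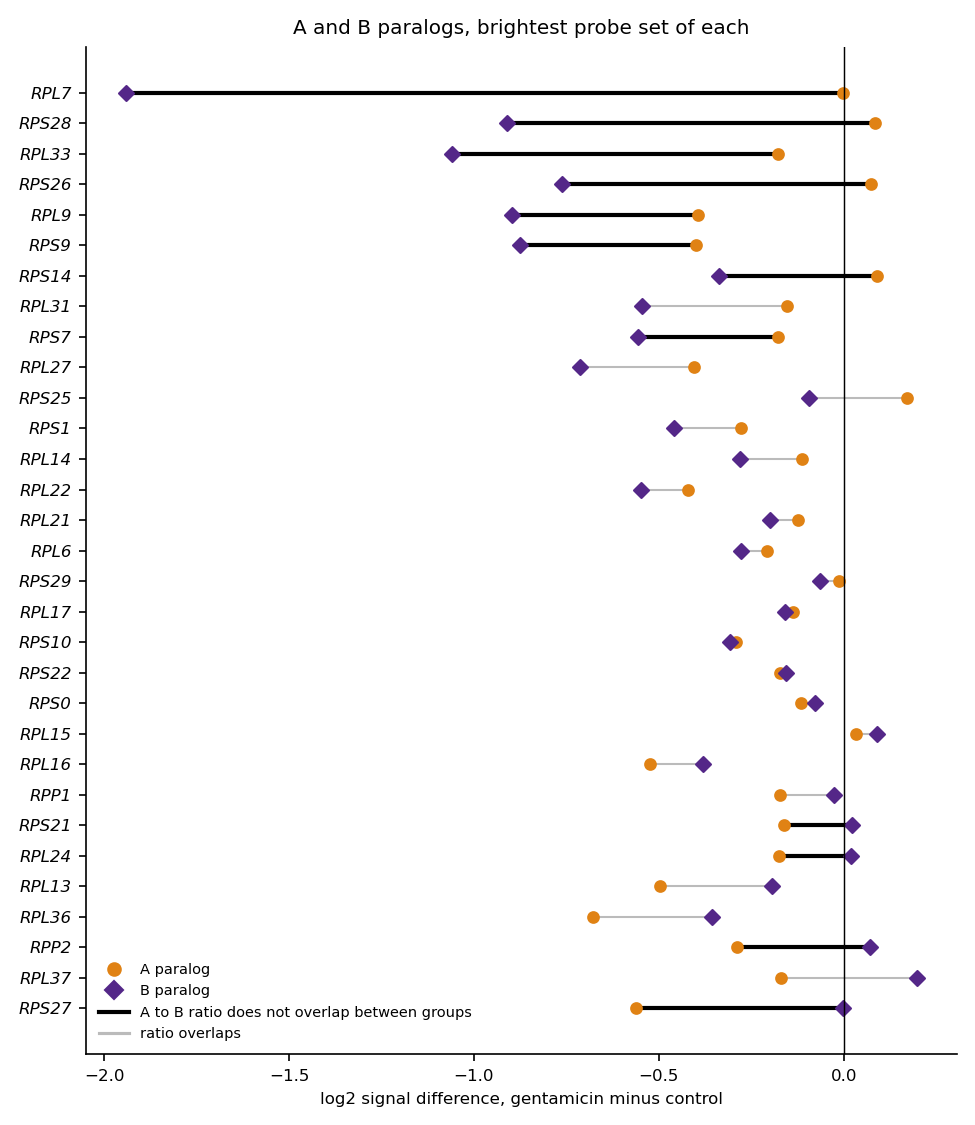
Log2 difference (gentamicin minus control, x axis) of the A gene (circles) and the B gene (diamonds) in 31 pairs, in the order of the change in their ratio. Thick black lines mark the 12 pairs whose A to B ratio did not overlap between groups, from *RPL7* at the top, where B was lower, to *RPS27* at the bottom, where A was lower.

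The pairs whose ratio moved furthest were *RPL7*, *RPS28*, *RPL33* and *RPS26*, all with the B gene lower. For *RPS28*, the log2 ratio of A to B was 1.23 ± 0.116 with gentamicin and 0.23 ± 0.0289 in controls (SD, n = 4 each), a change of 1.99-fold. *RPS28A* itself had 9555, 9239, 8306 and 8344 with gentamicin, against 9253, 7872, 8048 and 8263 in controls, which overlapped (adjusted p = 0.375), and all 4 combinations of the pair's probe sets, a comparison added after seeing the data, gave ratios that did not overlap. For *RPS26*, the log2 ratio was 4.36 ± 0.0673 with gentamicin and 3.52 ± 0.0691 in controls, a change of 1.79-fold, with *RPS26A* at 27237, 24725, 30429 and 29661 with gentamicin against 29720, 25875, 24016 and 26751 in controls. For *RPL33*, it was 2.17 ± 0.149 with gentamicin and 1.29 ± 0.169 in controls, a change of 1.84-fold. *RPL33A* had 5419, 5236, 4562 and 4690 with gentamicin, just below its 5638, 5606, 5692 and 5530 in controls (adjusted p = 0.055). Both probe sets of the *RPL33* pair are of the f class, so each can take up signal of the other gene. The *RPS28* ratio, in all its combinations, and the *RPL7* ratio below also rest on shared-class probe sets for both genes. The *RPS26* ratio rests on a shared-class probe set for A. For *RPL7* the change was 3.84-fold, carried by the dim *RPL7B* probe set, while *RPL7A* had 11708 ± 403 with gentamicin and 11749 ± 1126 in controls.

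**Figure D5:**
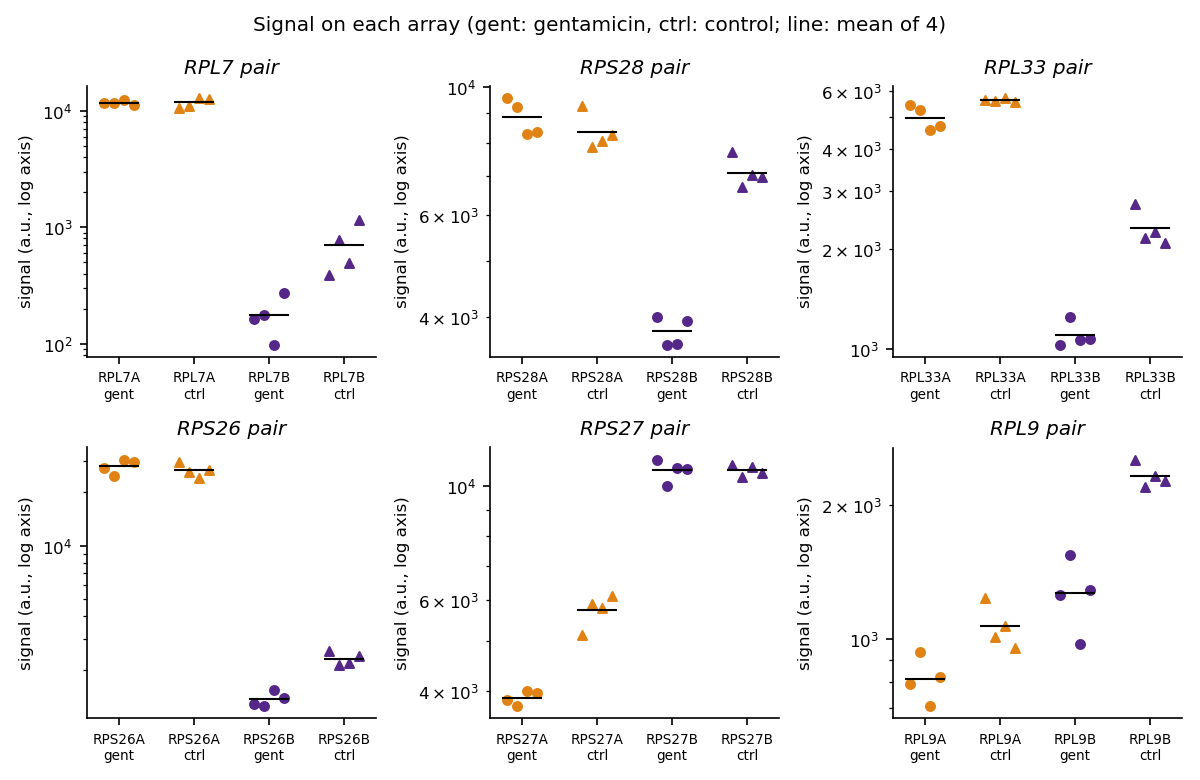
Signals of the 4 gentamicin arrays (circles) and 4 control arrays (triangles) for the A and B genes of the 6 pairs with the largest change in ratio (log y axes, line: mean). In 5 pairs the B gene is the one lower or further lower with gentamicin, and in *RPS27* it is the A gene. Heights of different probe sets do not compare the amounts of the 2 transcripts.

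The *RPS27* pair ran the other way. *RPS27B* had 11258, 10026, 10871 and 10789 with gentamicin, against 11008, 10444, 10882 and 10606 in controls, so the fall of *RPS27A* moved the log2 ratio to -1.47 ± 0.0586 with gentamicin, against -0.91 ± 0.137 in controls. Both are own probe sets. The other 3 pairs that moved towards B had smaller changes, 1.28-fold for *RPP2*, 1.15-fold for *RPL24* and 1.14-fold for *RPS21*, and in *RPL24* and *RPS21* neither gene was called alone. The remaining pairs that moved towards A were *RPL9*, *RPS9*, *RPS14* and *RPS7*, by 1.42-fold, 1.39-fold, 1.34-fold and 1.30-fold. In *RPL9* and *RPS9* both genes fell and the ratio moved towards A. Over all combinations of their probe sets, the ratio did not overlap in 2 of 4 for *RPS7* and in 1 of 2 for *RPS9*, and the combinations that overlapped moved the same way (exact permutation p = 0.0857 and 0.114 for *RPS7*, 0.0857 for *RPS9*). It did not overlap in 5 of 6 for *RPL7* and 2 of 2 for *RPS26*. The *RPL9*, *RPS9* and *RPS21* ratios rest on shared-class probe sets for both genes.

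Of the 19 other pairs, several had small changes in ratio. On the brightest probe sets, the ratio changed by 1.01-fold for *RPS10* (exact permutation p = 0.514, A and B both lower), 1.01-fold for *RPL17* (p = 0.771) and 1.01-fold for *RPS22* (p = 0.8), and by 1.03-fold for *RPS0* (p = 0.429). The *RPS10* and *RPL17* values rest on shared-class probe sets for both genes, and the *RPS22* value on a shared-class probe set for B. With the own probe sets of both *RPS22* genes, the ratio moved 1.54-fold towards B without overlap (exact permutation p = 0.0286). None of the 4 combinations of probe sets for *RPS10*, the 6 for *RPL17* or the 4 for *RPS0* was free of overlap. In *RPL31*, only the B gene was called on its brightest probe set, but the ratio overlapped between groups (exact permutation p = 0.0571), and 2 of the 6 combinations of probe sets did not overlap. Likewise only *RPL13A* of its pair was called (5458 ± 894 with gentamicin against 7635 ± 591 in controls), yet the *RPL13* ratio overlapped (exact permutation p = 0.171). Counted over genes, 18 of 31 B genes (58.1%) and 10 of 31 A genes (32.3%) fell, with medians of -0.28 and -0.17. Over all tested probe sets 31.0% fell, and in the brightest class, where most members lie, 16.8% fell. The A and B genes were not matched for signal. Among members, 67.4% of probe sets with a mean signal under 5000 fell, against 11.1% of those at 10000 or more. Over all tested probe sets, 37.3% fell in the dimmest of 5 equal classes of signal. Of the 14 pairs in which both probe sets are own, 5 had ratios that did not overlap, against 7 of the 17 others.

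Probe sets of the same gene mostly gave similar differences. Of 21 genes with more than 1 probe set, 19 had more than 1 tested, and in 17 of these the log2 differences spanned less than 0.2. In 5 of the 19 genes (*RPL27A*, *RPL31B*, *RPS28B*, *RPS7B* and *RPS9B*) every probe set fell. In 5 of the 19, some probe sets were called and others not: *RPL17B*, *RPL31A*, *RPS0B* and *RPS10A* each had 1 lower call, and *RPS22B* had 1 higher call. The own probe set of *RPS22B*, at 233, 271, 259 and 279 with gentamicin against 191, 189, 181 and 199 in controls, rose 1.37-fold (adjusted p = 0.00346) and is the single rise among the members. Its 2 brighter probe sets, of the f and i classes, had log2 differences of -0.16 and -0.22 (adjusted p = 0.0531 and 0.0705), so no direction is drawn for *RPS22B*. The 3 probe sets of *RPL7A* gave log2 differences of 0.30, -0.27 and nearly 0 (adjusted p = 0.641, 0.0944 and 0.995). One of the 2 probe sets of *RPS10B* had signals of 0.92 to 20.9 on all arrays, no higher than array controls for absent transcripts.

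Single-copy genes had 5 of 18 probe sets lower (*RPL3*, *RPL25*, *RPL30*, *RPS13* and *RPS20*), or 27.8% beside 31.0% of all tested probe sets, with a median of -0.11. Genes of pairs had 36 of 85 lower, or 42.4%, and 1 higher, with a median of -0.19. The difference between these shares was not tested. No neighbouring pair of member genes had both genes called, which does not show that neighbours differ. Of 6 neighbouring pairs of member genes in the R64 gene order, *RPS9B* fell by 0.88 on the log2 scale while *RPL21A* beside it had -0.12 (adjusted p = 0.208), and *RPL13A* fell by 0.50 while *RPP1A* had -0.17 (0.296). In the other 4, at most 1 of the 2 neighbours was called.

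Genes that serve the ribosomal proteins were examined beside them. Values under the other scalings are not given for these genes, nor for the regulators and other ribosome-bound proteins below. Of 8 chaperones that each bind a new ribosomal protein before its assembly, 6 were tested and all 6 fell, with a median log2 difference of -0.66, beside a median of -0.13 and 31.0% lower over all tested probe sets. In the dimmest of the 5 equal classes of signal, where *ACL4* lies, the median was -0.25 with 37.3% lower. The next class, that of *RRB1*, had -0.24 and 38.5%. *ACL4*, the chaperone of Rpl4, fell 1.72-fold, to 186 ± 15.4 with gentamicin against 321 ± 33.2 in controls (adjusted p = 0.000469). *RRB1*, the chaperone of Rpl3, fell 1.90-fold, to 273 ± 28.8 against 525 ± 122 (0.00182), and *TSR4*, which assists Rps2, fell 1.33-fold, to 614 ± 16.1 against 817 ± 27.0 (0.000872). General chaperones at the ribosome exit had 1 of 5 lower and none higher (31.0% and 15.0% of all tested probe sets).

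Of regulators of ribosomal protein genes, 11 of 25 tested probe sets fell, for 10 genes, and 5 rose, for 3 genes, with a median of -0.29, beside 31.0% lower and 15.0% higher over all tested probe sets. *BCY1*, the inhibitory subunit of protein kinase A, rose by 0.58 on the log2 scale, to 4125 ± 328 with gentamicin against 2747 ± 53.2 in controls (adjusted p = 0.00017). All 3 probe sets of *YAK1*, a kinase that opposes growth, rose, the brightest to 4469 ± 250 with gentamicin against 2963 ± 426 in controls (0.00162). *KOG1*, a subunit of TOR complex 1, fell 1.47-fold, to 655 ± 33.0 against 964 ± 79.0 (0.000603). The list's calls did not all lie on 1 side of growth signalling. The 3 genes that follow were named after their values were seen. Of catalytic subunits of protein kinase A, *TPK2* rose 1.29-fold (adjusted p = 0.00511) and *TPK3* fell 1.45-fold (0.00405). *RIM15*, a kinase that acts when growth signalling is low, fell 1.26-fold (0.0147).

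Of other proteins that bind the mature or maturing ribosome, 4 of 9 probe sets fell and none rose, beside 31.0% and 15.0% of all tested probe sets, and 2 of the 4 were of 1 gene, *ASC1*. *ASC1*, a small-subunit protein outside the naming scheme of the members, fell 1.30-fold and 1.32-fold by its 2 probe sets, to 6064 ± 568 with gentamicin against 7996 ± 238 in controls for the brighter (adjusted p = 0.00201). *NMD3*, the export adaptor of the large subunit, fell 2.81-fold, to 406 ± 41.8 against 1142 ± 135 (1.94e-05), and *TMA64* fell 1.40-fold (0.0112).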

How the data were processed

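The data were 8 single-colour Affymetrix yeast arrays, 4 with gentamicin and 4 controls. The intensity values deposited by the authors are 1 linear signal per probe set. The submitters' processing notes name MAS5 alone, so its version and scaling target are not given in the sources used here. Symbols of all 6504 probe sets with 1 gene were matched to the R64 gene table. Array controls (60), probe sets with several genes (328) or none (2443), and the dimmest 20% of the rest were left out of the test. Signals were taken to log2 without an offset and compared with limma 3.58.1 in R 4.3.3 (variance trend, Benjamini-Hochberg over 5203 probe sets across all genes).

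Each paralog ratio, and each measure of array quality, had an exact permutation test, two-sided (scipy 1.17.1). Members, lists and tests were chosen with earlier results of these data known. The text names the largest called changes, both genes of pairs, the role lists, genes with several probe sets, single-copy members with the smallest adjusted p, members with 1 array apart, and at most 3 called regulators and 3 called chaperones, those with the smallest adjusted p, besides 3 regulators named after their values were seen. On simulated data for this comparison with 5203 probe sets, 100 were changed 1.5-fold and 100 were changed 2-fold. Of these, 71% of 1.5-fold and 90% of 2-fold changes were called, with 6 false calls among 167. The simulated arrays had no shift between groups, and in the measured data 46.0% of probe sets were called, so these rates need not hold there. The number of arrays limits the precision.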

Additional observations from a re-analysis of the deposited data

Results flagged for a closer look

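In 17 of 210 groups of 4 values (105 probe sets in 2 conditions), 1 array lay far from the other 3. Chance alone flags about 1 group in 20. Of the 17, 6 were on gentamicin 5 and 4 on control 1.

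On gentamicin 5, *RPS29B* had 3026 against 7498 to 7747 on the other gentamicin arrays, *RPL38* 6017 against 9929 to 10289, *RPS29A* 7139 against 9831 to 10468 and *RPS7A* 6886 against 7719 to 7879, while *RPL15B* (5446 against 5055 to 5102) and *RPL28* (4941 against 4047 to 4153) were high. *RPS29A*, *RPS29B* and *RPL38* were also lowest on control 1 among the controls. On control 1, *RPL22A* (3834 against 5634 to 5977) and 1 probe set of *RPS10A* (1476 against 2242 to 2426) were low, and *RPL21A* (7608 against 6323 to 6495) and a shared probe set of *RPL31A* (10178 against 8336 to 8583) were high.

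The others were *RPL16B* on gentamicin 7 (3543 against 6184 to 6910), *RPL22B* on gentamicin 8 (455 against 352 to 360), *RPP1A* on gentamicin 6 (8370 against 6011 to 6168), *RPL32* and *RPS22A* on control 2 (5897 against 6184 to 6217, and 15242 against 18312 to 18654), and dim probe sets of *RPL7A* on control 3 (56.8 against 222 to 291) and *RPL7B* on control 4 (107 against 127 to 131).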

How the results depend on the processing

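No paired analysis was possible because the groups share no replicate numbers. The 41 members lower and 1 higher became 63 lower after quantile normalization, 20 lower and 17 higher with aligned array medians, 26 lower at an adjusted p under 0.01, and 18 lower among the 55 own probe sets. The count higher was 0 with the dimmest 40% left out or 1 probe set per gene, and 2 with array weights. Leaving out 1 array at a time gave 33 to 42 lower and 1 higher, and 32 of the 41 were lower in all 8 omissions. The members' median minus that of all tested probe sets (-0.05) was -0.26 after quantile normalization and -0.0839 with the dimmest 40% left out; with 1 array left out it ran from -0.0769 (without control 2) to -0.0341 (without control 1), with -0.0732 without gentamicin 5. The large minus small median (-0.00751) was 0.0231 among own probe sets and ran from -0.0425 (without control 3) to 0.0122 (without control 1), so its sign is not settled. The 12 pairs of 31 were 5 of 14 with own probe sets only, and 12 to 17 with 1 array left out, where fewer values leave less room for overlap; leaving out gentamicin 5 gave the 17. With aligned medians the log2 differences of *RPL10*, *RPL7A* and *RPS27B* turned to 0.21, *RPL17B* to 0.0536, *RPL21B* to 0.0133 and *RPL25* to 0.0106. After quantile normalization *RPL24B* turned to -0.15, *RPP0* to -0.14 and *RPS21B* to -0.17. Both scalings shift whole arrays or signal ranges, and the cause of these changes was not tested. Signals near those of absent transcripts (up to 89.5) limit *RPL7B* and *RPS10B*.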
